A study of Mus musculus with 32 samples.

Results

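Vertical sleeve gastrectomy (VSG), which cuts away the greater part of the stomach and leaves a narrow tube, was compared with sham surgery in the subcutaneous white fat of mice at ZT7, in the middle of the light phase (zeitgeber time, ZT, counts hours from lights on). The 8 libraries were those that the labels give as ZT7, 4 from VSG animals and 4 from sham animals, of 32 libraries in all; the other 24 were collected at ZT1, ZT13 and ZT19. All 8 animals were C57BL/6J mice, wild type by the title of the series, and fat was removed 9 days after surgery. Before either operation the mice could choose liquid diet from 3 days ahead, had nothing else from 2 days ahead and were fasted overnight. Afterwards both groups were kept on it alone up to day 3 and could choose between it and the diet labelled HFD on day 4. Age, sex and the diet up to tissue collection are not given in the sources used here. Nothing in the labels pairs a VSG animal with a sham animal. The labelled tissue carried its defining genes in all 8 libraries: the adipokine gene Adipoq had 94085, 120751, 111754 and 110383 in sham and 104409, 121148, 100116 and 97831 in VSG, the lipid droplet gene Plin1 49137 to 72988 and the fatty acid binding protein gene Fabp4 443833 to 830805. These 3 genes did not pass the test between the surgeries (log2 fold changes -0.044, -0.052 and 0.20).

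White fat stores triglyceride in adipocytes, makes fatty acids and triglyceride when food is plentiful and releases fatty acids by lipolysis when it is not, and secretes hormones such as leptin in proportion to its fat mass. Between the adipocytes lie capillaries, fibroblast-like progenitors that lay down collagen, resident macrophages and, after injury or in active lipolysis, neutrophils. Adipocytes also carry a circadian clock, in which the activators encoded by Arntl, Clock and Npas2 drive their own inhibitors, and ZT7 falls in the rest phase of mice.

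Read totals of the 8 libraries were 15723832 (VSG replicate 1) to 27197490 (sham replicate 1) reads assigned to genes. Values are the deposited normalized values (reads per gene over the library's size factor), listed in the order of replicates 1 to 4, and fold changes are of log2(value + 1), given as VSG against sham ± SE. The added 1 shrinks the fold changes of genes at low values. The test was limma across 15588 genes with n = 4 animals per group, and called means an adjusted p under 0.05. The SE and p-value of a gene rest on a spread within groups estimated from all 32 libraries, those of the other times included. Animals of the VSG group had lost more weight: the weight loss in the labels, for which no unit is given, was 13.41, 15.25, 15.58 and 23.12 after VSG and 4.56, 2.78, 5.26 and 5.22 after sham surgery. The groups did not overlap, and the difference of means of 12.4 had an exact two-sided permutation p of 0.0286, the smallest that 4 animals against 4 allow. Gene expression at the same hour therefore stands beside a difference in weight loss, and the operation and the weight lost cannot be told apart.

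VSG replicates 1 and 2 each differed from the other VSG libraries, in different ways. VSG replicate 1 was the VSG library nearest to the sham mean for 590 of the 794 genes called between the surgeries (74.3%, against 41.3% of all genes tested), and the median distance of the called genes from the sham mean was 0.49 in it against 0.90, 0.98 and 0.96 (log2) in replicates 2, 3 and 4. It came from the VSG animal with the smallest weight loss and has the fewest reads; the part of either in its values was not tested. VSG replicate 2 was high in genes of brown and beige fat: Ucp1, the uncoupling protein, had 11.8, 52.1, 38.01 and 65.7 in sham and 63.4, 3127, 58.1 and 8.58 in VSG. Cidea, a lipid droplet gene of brown fat, had 491, 622, 625 and 603 in sham and 341, 2729.7, 320.2 and 144 in VSG. The cytochrome oxidase subunit gene Cox8b had 873, 673, 582 and 675 in sham and 314, 6471, 372 and 321 in VSG. Those 3 genes were not called. Markers of lymph node B cells and of skeletal muscle, which are high in 5 and 7 of the 32 libraries, are high in none of the 8 at ZT7: the B cell markers had a mean log2 value of 5.63 to 7.01, against 8.62 to 12.1 in the 5, and the muscle markers one of 3.76 to 4.64, against 7.21 to 11.1 in the 7.

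**Figure D1:**
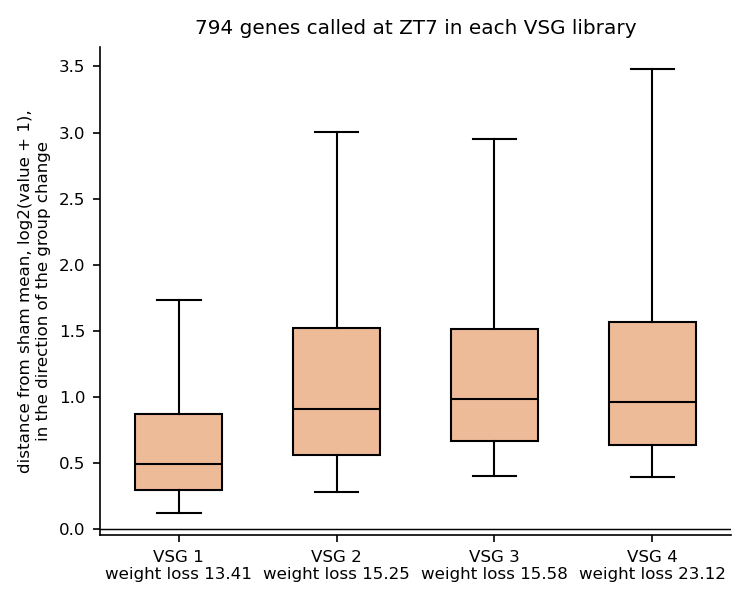
Distance of each VSG library from the sham mean over the 794 genes called at ZT7, as the difference of log2(value + 1) signed so that positive is the direction of the group change. Boxes span the quartiles of the genes with the median as a line, whiskers the 5th to the 95th percentile, and the label under each box gives the weight loss of the animal; VSG replicate 1, with a median of 0.49, lies below the other VSG libraries.

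In all 794 genes were called at ZT7, 5.09% of those tested. Of these, 270 were higher (1.73%) and 524 lower (3.36%) after VSG, and 323 changed at least 2-fold, 69 of them higher and 254 lower. The median log2 fold change of all genes was 0.0069. Counts of called list members below are to be read beside the shares of all genes, 5.09% called, 1.73% higher and 3.36% lower. All 4 VSG values lay above all 4 sham values in 1012 genes (6.49%) and below them in 1437 (9.22%), and 696 of the 794 called genes were among these. The calls held 746 of 13959 protein coding genes tested, 6 of 417 lincRNAs and 13 of 352 antisense RNAs. Since no source used here says whether reads were counted by strand, an antisense gene and its partner cannot be told apart. The number of calls moved more with single libraries than with TMM or quantile scaling, which gave 776 and 644. Leaving out VSG replicate 1, 2, 3 or 4 gave 1668, 360, 107 or 82 calls, and leaving out sham replicate 1, 2, 3 or 4 gave 82, 164, 234 or 623. Of the 107, 106 were among the 794, and of the 82 in each case, all 82. These fits share every library but 1 with the main fit, so the overlap is no independent evidence for the calls. Of 90 called genes that the rule for named genes picked out, 11 were called in all 21 alternative fits, 8 of which each leave out 1 library: Pkp1, Tekt1, Plppr4, Pla2g2e, Smtnl2, Col3a1, Col5a2, Col12a1, Vldlr, Amigo3 and Plppr3. Where a count of fits is given for a gene below, it is the number of these 21 fits in which the gene was called.

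**Figure D2:**
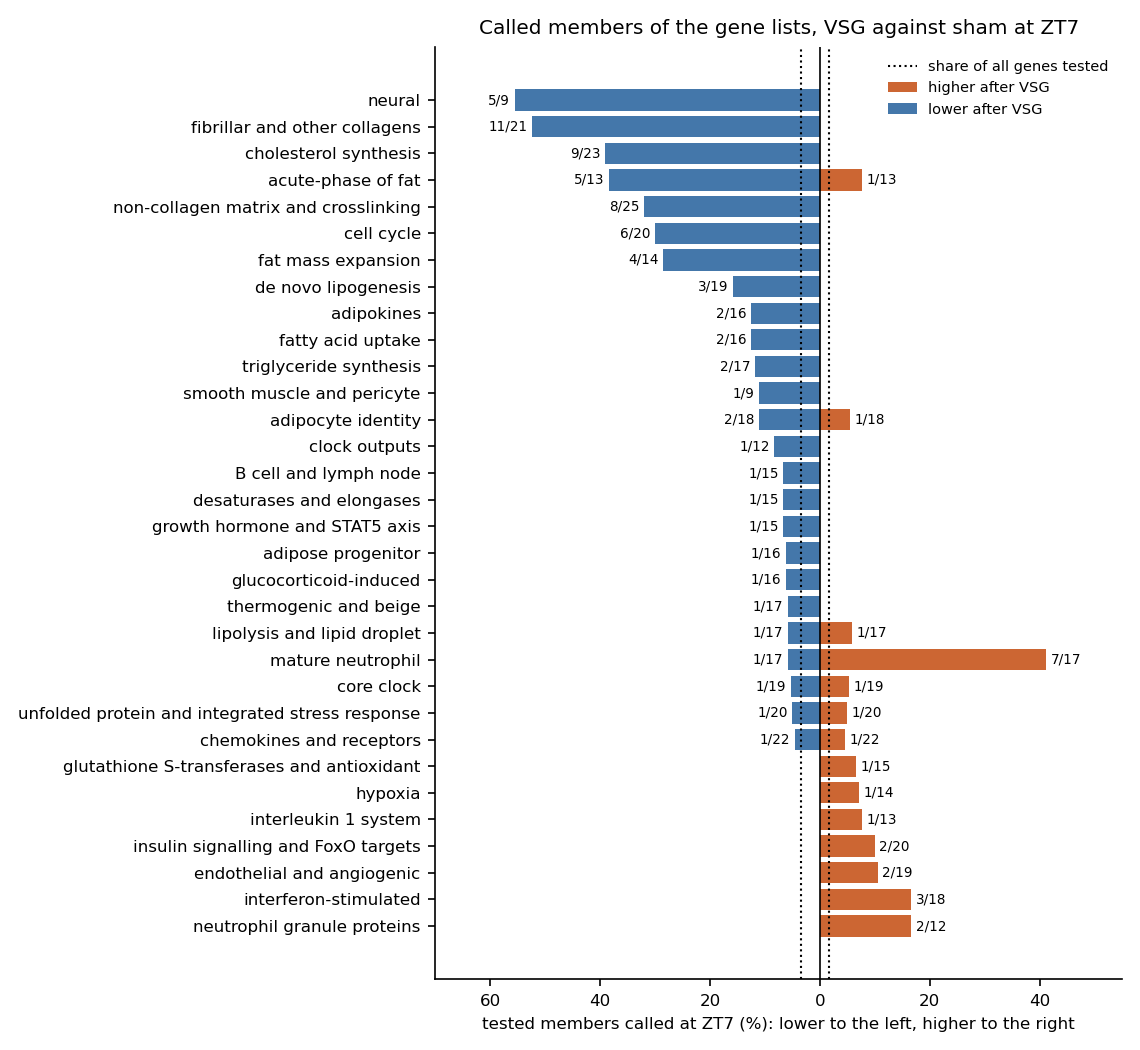
Percent of the tested members of each gene list called at ZT7, lower after VSG to the left and higher to the right, for the lists with at least 9 tested members and at least 1 call; the fractions give called over tested members. The dotted lines are the shares of all 15588 genes, 3.36% lower and 1.73% higher, and the longest bars to the left are neural genes (5 of 9), collagens (11 of 21) and cholesterol synthesis (9 of 23), and to the right mature neutrophil genes (7 of 17).

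Among called genes with a mean value of at least 50 over the 8 libraries, the largest falls were in Pkp1, Tph2 and Grid1, genes best known from epithelium and brain. Pkp1, which encodes plakophilin 1 of the desmosomal plaque (ENSMUSG00000026413, chromosome 1, 135871395 to 135919207, mm10), had 182, 229, 296 and 113 in sham and 41.2, 2.29, 2.47 and 2.86 in VSG. It was 29.6-fold lower after VSG (log2 fold change -4.89 ± 0.97, adjusted p = 0.0107), with VSG replicate 1 above the other VSG libraries and all 4 below the sham values. Tph2, the tryptophan hydroxylase that makes serotonin in neurons (ENSMUSG00000006764, chromosome 10, 115078641 to 115185022), had 3019.8, 2871, 3846 and 1418 in sham and 553, 64.1, 93.9 and 57.2 in VSG and was 22.1-fold lower (log2 fold change -4.46 ± 1.01, adjusted p = 0.0162; 18 fits). The glutamate receptor subunit gene Grid1 had 685, 718, 502 and 503 in sham and 166, 30.9, 39.6 and 7.62 in VSG (16.1-fold lower, adjusted p = 0.0162; 17 fits). In all 3 the 2 groups are apart in every library, and the VSG values of replicates 2 to 4 lie far under that of replicate 1. Of the called genes below that mean, Rnase2a, a ribonuclease gene named after its values were seen, fell by more than Grid1, from 81.6 ± 50.1 in sham to 3.36 ± 3.09 in VSG (mean ± SD; log2 fold change -4.25); it has near-identical relatives, so reads may be split among them. Ncan, a proteoglycan of the brain matrix, had 1267, 1293, 1216 and 661 in sham and 384, 109, 60.6 and 38.1 in VSG. Plppr4, a membrane protein related to the lipid phosphatases, had 443, 346, 295 and 268 in sham and 85.6, 44.6, 16.1 and 13.3 in VSG. They were 10.7-fold and 10.6-fold lower. Slc5a7, the transporter that brings choline into cholinergic nerve endings, had 1651, 1559.9, 2079.9 and 941 in sham and 834, 103, 106 and 133 in VSG (7.97-fold lower, adjusted p = 0.0318), and was called in 13 fits. These 5 genes are the called members of a neural list of 17, of which 11 are in the table and 9 were tested; all 5 fell, and its median was -2.99. The list was drawn up with falls of these genes in the series known, so its count is no independent evidence. Of the other 4 tested members none was called: Stmn2, a tubulin-binding protein of growing axons, had 229, 183, 213 and 198 in sham and 206, 274, 289 and 235 in VSG (log2 fold change 0.28). Tubb3, the neuronal tubulin, had 54.2, 19.1, 31.2 and 26.9 in sham and 17.4, 24.04, 14.8 and 20.01 in VSG (log2 fold change -0.67). None of 14 markers of Schwann cells and nerve was called (median 0.54), and their sum was 16005 to 22945 in sham and 21103 to 31434 in VSG libraries. Of the 14, 11 had a positive fold change. All VSG values lay above all sham values in 5 and below them in 1, beside 6.49% and 9.22% of all genes. Across the 21 alternative fits 0 to 5 of the 14 were called.

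Other large falls were in lipid enzymes and in genes of mixed function. Lipf, the gastric lipase gene, had 767, 1101, 866 and 389 in sham and 192, 33.2, 69.2 and 64.8 in VSG (9.85-fold lower, adjusted p = 0.0132; 19 fits). Pla2g2e, a secreted phospholipase A2, had 586, 311, 386 and 210.0 in sham and 44.4, 60.7, 22.3 and 27.6 in VSG and was 9.46-fold lower (log2 fold change -3.24 ± 0.65, adjusted p = 0.0107). Lpar3, a receptor for lysophosphatidic acid, had 182, 304, 293 and 127 in sham and 99.9, 10.3, 21.01 and 13.3 in VSG (8.75-fold lower; 20 fits). For these 3, as for every gene of this paragraph, no VSG value reached the lowest sham value. Car12, a carbonic anhydrase of the cell membrane, had 158, 171, 172 and 137 in sham and 41.2, 4.58, 11.1 and 2.86 in VSG (15.6-fold lower; 20 fits). Tekt1, a structural protein of cilia, had 183, 249, 159 and 80.8 in sham and 50.7, 2.29, 7.42 and 7.62 in VSG (14.9-fold lower). The smoothelin-like gene Smtnl2 fell 8.07-fold, Bpifb6, of the BPI fold family, 9.27-fold, the phospholipase C gene Plch2 8.38-fold and the serpin gene Serpina3m 7.98-fold (called in 21, 18, 15 and 16 fits). Serpina3m belongs to a cluster of near-identical serpin genes among which reads can be split, so its value is uncertain.

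**Figure D3:**
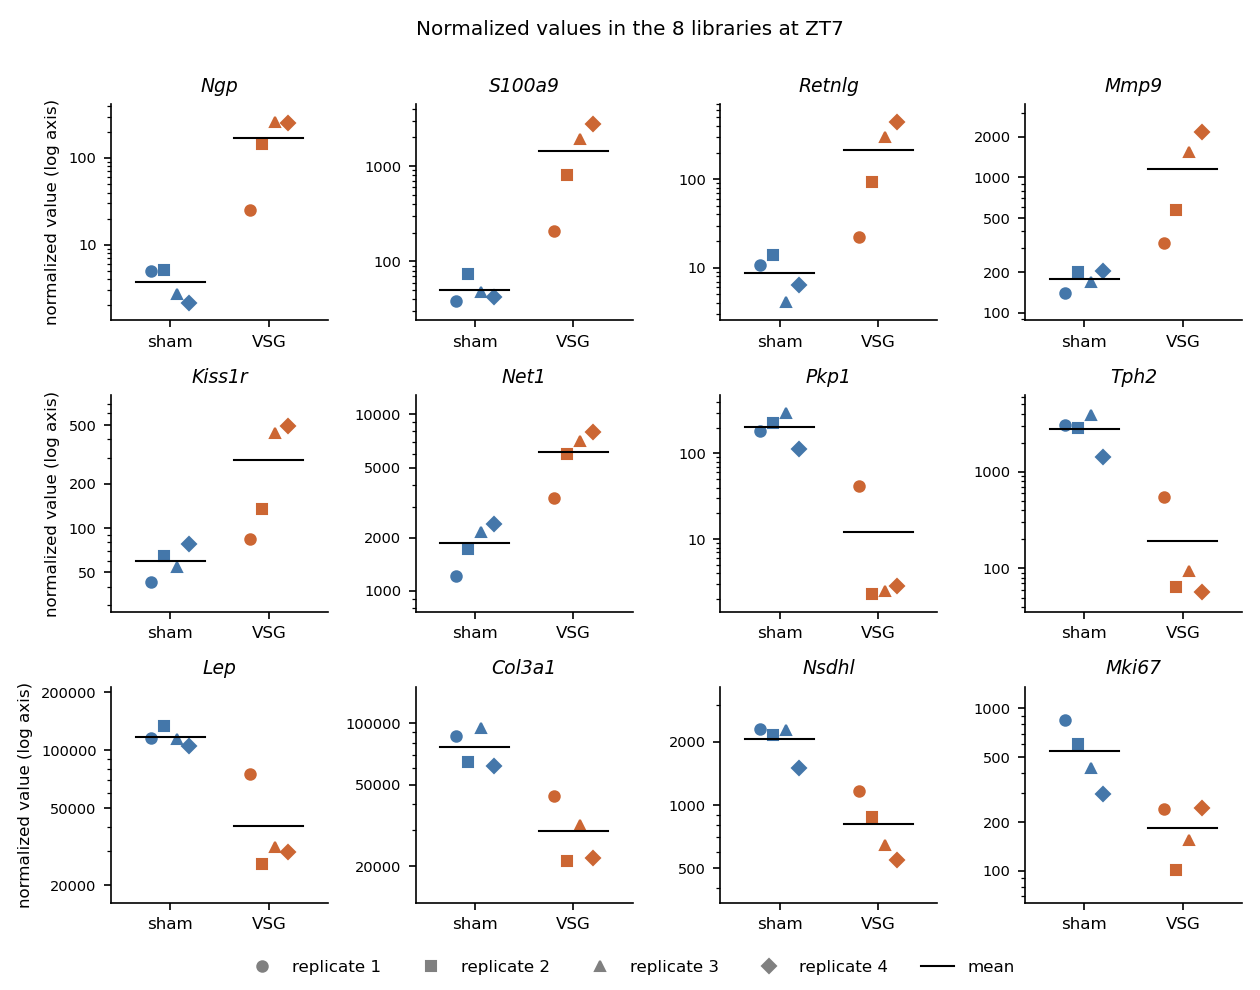
Normalized values of 12 genes in the 8 libraries at ZT7 on log axes, with 1 symbol per replicate number and a line at the mean of the 4; replicate numbers do not pair animals. In each panel the VSG values lie on 1 side of the sham values, and VSG replicate 1 is the VSG value nearest to sham in 11 of the 12 panels, all but Mki67.

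The 4 largest rises among all called genes, those of Ngp, S100a9, Ltf and Retnlg, were in genes of neutrophils, the short-lived phagocytes that enter tissue early in inflammation. Their granule proteins are made by precursors in bone marrow, while surface receptors and S100 proteins mark the mature cell. S100a9, a calcium-binding protein abundant in mature neutrophils (ENSMUSG00000056071, chromosome 3, 90692632 to 90695721), had 38.5, 73.7, 47.5 and 42.00 in sham and 208, 801, 1936 and 2784 in VSG. It was 19.6-fold higher after VSG (log2 fold change 4.29 ± 0.88, adjusted p = 0.0112; 20 fits), with every VSG value above the sham values and replicate 1 again the lowest. Retnlg, a resistin-like protein of neutrophils, had 10.8, 13.97, 4.07 and 6.46 in sham and 22.2, 92.7, 303 and 438 in VSG (14.4-fold higher; 19 fits). Mmp9, a gelatin-degrading protease stored in neutrophil granules, had 141, 201, 169.7 and 202 in sham and 327, 577, 1538 and 2160.5 in VSG (5.02-fold; 16 fits). The chemokine receptor gene Cxcr2 had 3.94, 8.89, 9.503 and 2.15 in sham and 12.7, 36.6, 71.7 and 146 in VSG (log2 fold change 2.93). The surface marker Ly6g had 0, 5.08, 0 and 0 in sham and 3.17, 13.7, 24.7 and 47.7 in VSG (log2 fold change 3.41), where VSG replicate 1 lies inside the sham range. Trem1, an activating receptor of myeloid cells, and Hdc, the enzyme that makes histamine, were also higher (log2 fold changes 2.14 and 1.19). In all 7 of 17 tested members of the mature neutrophil list rose and 1 fell, Wfdc21, a secreted protein with a WAP domain, from 1966 ± 1151 to 434 ± 270.0 (mean ± SD; log2 fold change -2.27). The list median was 1.42, against 0.0069 over all genes, and its calls ranged over 0 to 10 with 1 library left out. All 18 genes of the list summed to 2809 to 5663 in sham and 2646 to 10327 in VSG libraries, so the sums overlap. S100a8, whose product pairs with that of S100a9, had 491, 292, 224 and 144 in sham and 173, 592, 1184 and 1719 in VSG and was not called (log2 fold change 1.37 ± 0.74, adjusted p = 0.284). In bulk tissue a change in the number of cells of a type and a change in RNA per cell cannot be told apart.

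Of the genes for granule proteins, Ngp had 4.93, 5.08, 2.72 and 2.15 in sham and 25.4, 147, 259.6 and 249.7 in VSG (27.8-fold higher; log2 fold change 4.80 ± 1.44, adjusted p = 0.0486). Ltf, which encodes lactoferrin, had 4.93, 5.08, 12.2 and 7.54 in sham and 25.4, 133, 295 and 248 in VSG (15.9-fold; adjusted p = 0.0485). Both passed by a small margin and were called in 10 and 11 of the 21 fits. Camp, the cathelicidin gene, had 3.94, 2.54, 0 and 1.08 in sham and 6.34, 45.8, 69.2 and 53.4 in VSG and missed the threshold (adjusted p = 0.0660). The serine protease gene Elane had 12.8, 12.7, 14.9 and 20.5 in sham and 30.1, 52.6, 32.1 and 26.7 in VSG (adjusted p = 0.312). Another, Prtn3, had 123, 80.03, 85.5 and 160.5 in sham and 109, 647, 401 and 311 in VSG (adjusted p = 0.117). Ngp and Ltf were the 2 called members of 12, the list median was 1.57, and with 1 library left out 0 to 5 members were called. The sum of the 12 was 329.9 to 462 in sham and 336 to 1925 in VSG libraries, with VSG replicate 1 the lowest of the VSG sums.

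Among mediators of inflammation Il1b, the gene of interleukin 1 beta, rose 4.27-fold, from 23.7, 33.03, 19.01 and 14.00 in sham to 57.1, 54.9, 129 and 198 in VSG (log2 fold change 2.09 ± 0.53, adjusted p = 0.0263; 16 fits), and it was the called member of 13 of the interleukin 1 system. Slfn4, a schlafen gene of myeloid cells, had 29.6, 13.97, 25.8 and 12.9 in sham and 66.6, 57.2, 103 and 124 in VSG (4.15-fold higher; 19 fits). The 2 groups are apart in both genes. Macrophage genes were not called: none of 20 passed, although all 20 had a positive fold change, with a median of 0.42. The largest was that of the Fc receptor gene Fcgr1, which had 188, 291, 243 and 197 in sham and 388, 201, 670.0 and 1039.7 in VSG (log2 fold change 1.09 ± 0.46, adjusted p = 0.156). Adgre1, the F4/80 antigen, had 1138, 1341, 1814 and 1206 in sham and 2288, 832, 3064 and 5335 in VSG. The groups overlap for every member. The mean log2 value of the list was 9.71 to 10.1 in sham and 10.2, 9.400, 10.8 and 11.2 in VSG replicates 1 to 4, so VSG replicate 2 lay below the sham range and replicates 3 and 4 above it. None of 15 Fc gamma receptor and myeloid signalling genes was called (median 0.62), although Fcgr4 had 116, 170.2, 134 and 102 in sham and 198, 191, 481 and 831 in VSG with the groups apart (log2 fold change 1.44 ± 0.47, adjusted p = 0.0689). Across the 21 alternative fits 0 to 9 of the 20 macrophage genes and 0 to 12 of these 15 were called. Both counts were highest with limma array weights, which called 4097 of all genes tested. None of 16 genes of lipid-associated macrophages was called (median -0.093). Of 22 chemokines and receptors Cx3cl1, the membrane-bound chemokine fractalkine, rose and Cxcl14 fell. Cx3cl1 had 341, 492, 372 and 382 in sham and 561, 433, 729 and 869 in VSG (log2 fold change 0.67), with VSG replicate 2 inside the sham range. Cxcl14 had 2804, 2231, 1644 and 2429.8 in sham and 761, 767, 1452 and 893 in VSG (log2 fold change -1.26). Of 18 interferon-stimulated genes 3 rose, the antiviral genes Rsad2, Oas2 and Oas3. Rsad2 had 477, 752, 696 and 591 in sham and 1081, 916, 1048 and 1479 in VSG (log2 fold change 0.84, adjusted p = 0.0236), and Oas2 and Oas3 had log2 fold changes of 0.89 and 1.21; the list median was 0.33, and with 1 library left out 0 to 4 were called.

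Acute-phase proteins, which liver and fat secrete in inflammation, fell in part. Hp, which encodes haptoglobin and is 1 of the 10 called genes with the highest mean value (ENSMUSG00000031722, chromosome 8, 109575130 to 109579172), had 230587, 139647, 143112 and 105926 in sham and 64919, 62873, 43609.7 and 32057 in VSG, 3.04-fold lower (log2 fold change -1.60 ± 0.36, adjusted p = 0.0155; 18 fits). Orm1 had 8224, 6370.3, 6279 and 5552 in sham and 3440.3, 2639, 1062 and 864 in VSG (log2 fold change -1.94). The protease inhibitor gene Serpina3n had 21848, 17539.5, 17686 and 14953 in sham and 9617, 7876, 7029 and 6027 in VSG (log2 fold change -1.25). All 4 VSG values were below the sham values in each. Serpina3c (log2 fold change -1.12) and complement factor B, Cfb (-0.67), also fell, while Cp, the copper-carrying ferroxidase ceruloplasmin, rose from 2239.7, 2022, 2439.7 and 2562 in sham to 3521, 5667, 5003 and 6799.7 in VSG (log2 fold change 1.15; 17 fits). Of 13 tested members 5 fell and 1 rose (median -0.93), and 0 to 6 were called with 1 library left out. Orm1, Serpina3n and Serpina3c have near-identical relatives, so reads may be split among them. Lbp, the lipopolysaccharide-binding protein, had 19427, 20119, 15516 and 15059 in sham and 8609, 4037, 6459 and 4594 in VSG and fell 3.07-fold (log2 fold change -1.62 ± 0.36, adjusted p = 0.0146).

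The hormone genes Lep and Apln fell. Lep, the leptin gene (ENSMUSG00000059201, chromosome 6, 29060220 to 29073877), had 116061, 133900.0, 115215 and 105971 in sham and 75679.6, 25883, 31597 and 29739.6 in VSG. It was 3.19-fold lower (log2 fold change -1.67 ± 0.44, adjusted p = 0.0317), with VSG replicate 1 between the sham values and the other VSG values, and was called in 13 fits. Apln, the gene of the peptide apelin, had 1850.1, 2142, 1219 and 1095 in sham and 788, 332, 423 and 282 in VSG (3.602-fold lower; 16 fits). They were the 2 called members of 16 adipokines (median -0.22); Rbp4, Retn and Angptl8 had log2 fold changes of -1.03, -0.95 and -2.15 and were not called. Of 14 genes that follow fat mass expansion 4 fell, Lep, Lbp, Sparc and Col6a3, and none rose (median -0.59). Igfals, which encodes the acid-labile subunit that holds insulin-like growth factors in the blood, fell 3.498-fold, from 6211, 7097, 4708 and 4459 in sham to 2459, 1526, 1330.1 and 1236 in VSG (log2 fold change -1.81 ± 0.44, adjusted p = 0.0211), and was the called member of 15 of the growth hormone list. Among the other called genes of high level, the matrix protein gene Sparc had 295079, 378230.0, 313316 and 264270.0 in sham and 168775, 121424, 145067 and 105311 in VSG (log2 fold change -1.22). The annexin gene Anxa2 had 67974, 60470.0, 58146 and 48901 in sham and 42659, 29904, 26597 and 23928 in VSG (log2 fold change -0.96). Anxa6 had 42180.2, 44912, 37942 and 41132 in sham and 31927, 26710.1, 30274 and 25445 in VSG (log2 fold change -0.54, adjusted p = 0.0481).

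A few of the genes that build and take up fat were called lower. Dgat2, which catalyses the last step of triglyceride synthesis, had 127664, 145773, 127364 and 116392 in sham and 86549, 54193, 33289 and 37258 in VSG (2.62-fold lower; log2 fold change -1.39 ± 0.41, adjusted p = 0.0447). Mogat2, a monoacylglycerol acyltransferase, had 576, 579, 604 and 442 in sham and 235, 62.9, 91.5 and 53.4 in VSG (5.87-fold lower; log2 fold change -2.55 ± 0.63, adjusted p = 0.0228). The groups are apart in both, and the calls stood in 11 and 15 fits. They were the 2 called members of 17 in triglyceride synthesis (median -0.44), and with 1 library left out 0 to 4 were called. In de novo lipogenesis, the synthesis of fatty acids from acetyl units, 3 of 19 fell. Acss2, which makes acetyl-CoA from acetate, had 4439, 3858, 3986 and 2432 in sham and 2047, 1562, 933 and 985 in VSG (log2 fold change -1.45). The malic enzyme gene Me1 and the mitochondrial citrate carrier gene Slc25a1 had log2 fold changes of -0.99 and -1.20. The list median was -0.63, and with 1 library left out 0 to 8 members were called. Fasn, the fatty acid synthase, had 64695, 53789.8, 45013 and 40652 in sham and 38400.2, 45366, 6738 and 6781 in VSG and was not called (log2 fold change -1.58 ± 0.73, adjusted p = 0.198); its values in VSG replicates 3 and 4 lie far under those of the other 6 libraries. For uptake, the very low density lipoprotein receptor gene Vldlr had 5718, 6444, 5554 and 4473 in sham and 3237, 2115, 1932 and 1660.1 in VSG (2.54-fold lower; log2 fold change -1.34 ± 0.25, adjusted p = 0.00800). Acsl1, which joins fatty acids to coenzyme A, had 58249.5, 71046, 62572 and 48803 in sham and 38720.5, 39292, 23243 and 27552 in VSG (1.898-fold lower). Vldlr and Acsl1 were the 2 called members of 16 tested genes of fatty acid uptake (median -0.13), of which 4 had a positive fold change. With 1 library left out 1 to 4 of the 16 were called. The counts of 2 in uptake and in triglyceride synthesis are not read as results about the lists. Lpl, the lipase of the capillary wall, had 288171, 266327, 294998 and 227684 in sham and 201585, 198169, 89394 and 75396 in VSG and missed the threshold (adjusted p = 0.0642), although every VSG value was below the sham values. Hacd2, an enzyme of fatty acid elongation, fell (log2 fold change -0.81), 1 of 15 desaturases and elongases.

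Of 17 genes of lipolysis and the lipid droplet 1 rose and 1 fell (median -0.22). Aqp7, the channel through which glycerol leaves the adipocyte, rose from 5784, 7963, 6451 and 6466 in sham to 7602, 9624, 11417 and 11139.7 in VSG (log2 fold change 0.57, adjusted p = 0.0459), and Hilpda, an inhibitor of adipose triglyceride lipase, fell from 2636, 2294, 1975 and 1628 in sham to 1451, 413, 727 and 821 in VSG (log2 fold change -1.44, adjusted p = 0.0120). Neither the lipase genes Pnpla2 and Lipe (log2 fold changes 0.46 and 0.03) nor any of 18 lipolytic hormone receptors and effectors or 20 genes of fatty acid oxidation was called. In the insulin and FoxO list Txnip, which falls with insulin in many cells, rose from 19794, 26788, 27451 and 27290.5 in sham to 33455, 44041, 53164 and 47455 in VSG (log2 fold change 0.81) and Cited2, a transcriptional coregulator, from 639, 903, 787 and 993 in sham to 956, 1307, 2305 and 1985 in VSG (log2 fold change 0.92); the other 18 members were not called. None of 23 nuclear genes of oxidative phosphorylation was called (median 0.019), and none of 20 adipogenic and lipogenic transcription factors, 18 genes of glucose uptake and glycogen or 21 of branched-chain amino acid breakdown. Dio2, the deiodinase that activates thyroid hormone, fell from 52.3, 88.9, 46.2 and 24.8 in sham to 15.9, 29.8, 3.71 and 3.81 in VSG (log2 fold change -2.24 ± 0.66, adjusted p = 0.0455). It was called in 13 of the 20 fits that tested it and was the called member of 17 thermogenic genes. VSG replicate 2, high in Ucp1, overlaps the sham range of Dio2.

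Of 23 tested genes of cholesterol synthesis 9 fell and none rose, 22 had a negative fold change, and the median was -0.79. With 1 library left out 0 to 14 were called, with 14 without VSG replicate 1, 2 without VSG replicate 2, 10 without sham replicate 4 and none without any of the other 5. Hmgcs1, the synthase at the head of the mevalonate pathway (ENSMUSG00000093930, chromosome 13, 119690462 to 119708086), had 12158, 12299.8, 15341 and 9014 in sham and 10356, 6506, 4418 and 5205 in VSG (1.91-fold lower; log2 fold change -0.93 ± 0.24, adjusted p = 0.0263), with VSG replicate 1 inside the sham range, as it was for Sqle, Cyp51 and Hsd17b7. Mvd, the last enzyme of the mevalonate steps (log2 fold change -0.95), and Sqle, which oxidises squalene (-0.93), fell as well. Lss, which closes the sterol rings, had 1316, 1202, 1257 and 988 in sham and 788, 599.7, 497 and 443 in VSG (log2 fold change -1.06). Cyp51, which removes a methyl group from lanosterol, had 1357, 1024, 1182 and 803 in sham and 845, 491, 367 and 419 in VSG (log2 fold change -1.09). In the sterol steps after it, Nsdhl (ENSMUSG00000031349, chromosome X, 72918557 to 72958514) had 2296, 2153, 2286 and 1502 in sham and 1165, 880.2, 646 and 546 in VSG (2.61-fold lower; log2 fold change -1.39 ± 0.32, adjusted p = 0.0181; 16 fits) and Hsd17b7 a log2 fold change of -1.21. Dhcr7, a reductase at the end of the pathway, had 1183, 1035, 980.2 and 825 in sham and 777, 586, 527 and 532 in VSG (log2 fold change -0.74). Insig1, which holds the sterol sensor in the endoplasmic reticulum, and Fdft1, the member with a positive value, were not called (log2 fold changes -1.06 and 0.21).

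Transcription of this pathway is driven by SREBP factors, which bind sterol regulatory elements beside CCAAT boxes bound by NF-Y, so promoters of called members were examined for both. Of the 4 examined, those with the smallest p that have a RefSeq promoter, the 3 with a match are shown, and the first listed window of Dhcr7 holds no match to either. Each is the 250 bases before the gene's start in RefSeq (build GRCm38.p6), read along the gene, with matches of either strand to TCACNCCAC, a form of the sterol regulatory element, or to CCAAT in capitals; a CCAAT of the opposite strand reads ATTGG. They are Hmgcs1 at chr13:119690101-119690350, Nsdhl at chrX:72918271-72918520 and Lss at chr10:76531355-76531604, all on the plus strand.
Hmgcs1: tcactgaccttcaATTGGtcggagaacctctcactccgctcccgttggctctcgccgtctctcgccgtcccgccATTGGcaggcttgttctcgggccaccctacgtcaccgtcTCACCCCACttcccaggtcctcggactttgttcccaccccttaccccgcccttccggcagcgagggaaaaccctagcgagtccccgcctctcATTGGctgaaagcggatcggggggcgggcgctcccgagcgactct
Nsdhl: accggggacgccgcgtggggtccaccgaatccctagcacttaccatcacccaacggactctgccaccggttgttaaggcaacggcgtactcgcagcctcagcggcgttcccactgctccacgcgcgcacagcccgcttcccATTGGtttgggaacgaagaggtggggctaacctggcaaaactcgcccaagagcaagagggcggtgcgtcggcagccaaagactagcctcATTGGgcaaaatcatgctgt
Lss: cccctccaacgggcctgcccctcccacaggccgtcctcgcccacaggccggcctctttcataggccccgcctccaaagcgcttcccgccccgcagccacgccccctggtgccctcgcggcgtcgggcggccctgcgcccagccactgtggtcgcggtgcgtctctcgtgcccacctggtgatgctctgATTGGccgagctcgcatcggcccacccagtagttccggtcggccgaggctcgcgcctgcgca
Hmgcs1 holds 1 sterol regulatory element, 137 bases before the start, and 3 CCAAT boxes, Nsdhl holds 2 CCAAT boxes and Lss 1. Of 32851 promoters in the table, 1.05% hold TCACNCCAC and 33.8% hold CCAAT. Of the 23 tested members of the pathway 16 matched a promoter by symbol, and by the first listed start 14 of these hold CCAAT and 1, Hmgcs1, holds TCACNCCAC. The letters matched are a description of these windows and not a bound site.

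Of 21 tested collagen genes 11 fell and none rose, all 21 fold changes were negative and the median was -1.10; in 17 all 4 VSG values were below all 4 sham values. With 1 library left out 4 to 16 were called. Col3a1, the collagen of reticular fibres (ENSMUSG00000026043, chromosome 1, 45311538 to 45349706), had 86831, 64248, 94096 and 61555 in sham and 43787, 21144, 31627 and 21914 in VSG (2.66-fold lower; log2 fold change -1.41 ± 0.28, adjusted p = 0.0105). Col5a2 had 9548, 8897, 8978 and 7839 in sham and 5576, 3041, 4088 and 3102 in VSG (log2 fold change -1.20). Col12a1, which coats collagen fibrils, had 723, 677, 661 and 369 in sham and 277, 101, 216 and 153 in VSG (log2 fold change -1.75). Of these 3 genes no VSG value reached the sham range, and each was called in all 21 fits. In the basement membrane, Col4a1 had 74967, 72691, 59473 and 52233 in sham and 35546, 24129, 30258 and 29064 in VSG (log2 fold change -1.12). Col4a2, encoded beside it, had 64853, 65749, 48255 and 46112 in sham and 30353, 21109.9, 26811 and 23609.8 in VSG (log2 fold change -1.14). Col6a1, Col6a2 and Col6a3, the 3 chains of collagen VI around adipocytes, had log2 fold changes of -1.02, -1.32 and -1.24, Col15a1 of -1.45, Col5a1 of -0.99 and Col4a3 of -1.80, all called. The 2 genes of collagen I did not pass: Col1a1 had 35635, 27026, 31169.7 and 28987 in sham and 20357, 11216, 23391 and 14931 in VSG (log2 fold change -0.86 ± 0.34, adjusted p = 0.134) and Col1a2 -0.89 (adjusted p = 0.0640).

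Other matrix genes followed in part. Of 25 tested 8 fell and none rose (median -0.39), 0 to 8 with 1 library left out. The called members include Sparc, given above, the laminin chain genes Lama2 (log2 fold change -0.98) and Lamc1 (-0.62), and Nid1 and Nid2 (-0.70 and -1.35), whose products link laminin to collagen IV. Lox and Loxl2 encode enzymes that crosslink collagen. Lox had 4656, 5118, 6074 and 4065 in sham and 3549.7, 1621, 2386 and 1789.8 in VSG (log2 fold change -1.15). Loxl2 had 1316, 1355, 1721 and 1215 in sham and 942, 389, 671 and 497 in VSG (log2 fold change -1.23 ± 0.26, adjusted p = 0.0112). The small proteoglycan gene Lum had 3404, 2485, 4875 and 2614 in sham and 2456, 1245, 1365 and 1145 in VSG (log2 fold change -1.12). Fn1, the fibronectin gene, had 12836, 10801, 12364 and 10391 in sham and 7779.6, 5322, 8097 and 6065 in VSG. It was not called (adjusted p = 0.311), although every VSG value was below the sham values. The thrombospondin gene Thbs2 had a positive log2 fold change of 0.86 (adjusted p = 0.184). Fap, a protease of activated fibroblasts, had 947, 768, 865 and 743 in sham and 612, 329.6, 523 and 423 in VSG and fell 1.797-fold, the called member of 16 progenitor genes (median -0.42).

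Genes of dividing cells fell in part. Mki67, a marker of proliferating cells, had 850.1, 602, 428 and 299 in sham and 239, 102, 155 and 244 in VSG (2.89-fold lower; log2 fold change -1.53 ± 0.44, adjusted p = 0.0414). The mitotic checkpoint kinase gene Bub1 had 81.9, 81.3, 58.4 and 32.3 in sham and 28.5, 4.58, 11.1 and 24.8 in VSG (4.02-fold lower). Aurkb, a kinase of the dividing chromosomes, had 258, 217, 168 and 125 in sham and 99.9, 51.5, 67.99 and 100.1 in VSG (2.39-fold lower). No VSG value reached the sham range in any of the 3, and sham replicate 4 was the lowest sham value in each. Mki67 and Aurkb were each called in 15 of 21 fits, and Bub1 in 13 of the 20 fits that tested it. Of 20 cell cycle genes 6 fell, all 20 fold changes were negative and the median was -1.08, against -0.24 in the mean of the other 3 times, where 1 fell. The other 3 called members were the cyclin genes Ccna2 and Ccnb1 and the kinase gene Cdk1 (log2 fold changes -1.36, -1.75 and -1.11), all with adjusted p-values of 0.0492 to 0.0498. None of the DNA replication genes on this list was called: Pcna had a log2 fold change of -0.17 and the helicase genes Mcm2, Mcm3, Mcm5 and Mcm6 -0.49, -0.31, -0.63 and -0.25. The list does not hold every replication gene, and Cdc45, which is outside it, was called. The count of called list members was 0 without VSG replicates 2, 3 or 4 or sham replicates 1, 2 or 3, 7 without VSG replicate 1 and 7 without sham replicate 4.

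**Figure D4:**
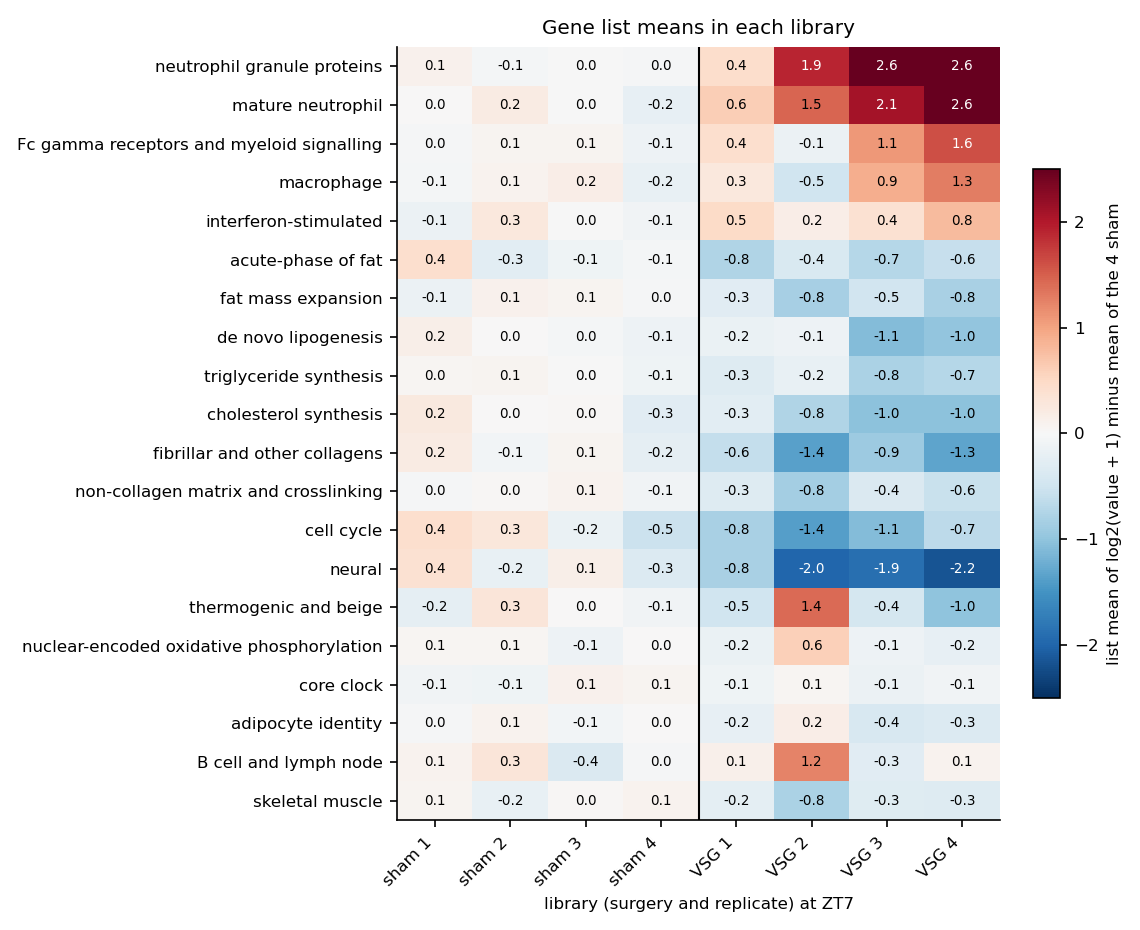
Mean of log2(value + 1) over the members of 20 gene lists in each ZT7 library, as the difference from the mean of the 4 sham libraries; red is higher and blue lower, and the numbers in the cells are the differences. VSG replicates 3 and 4 carry the largest neutrophil values, VSG replicate 2 is low in macrophage and cell cycle genes and high in thermogenic and B cell genes, and the core clock row stays near 0.

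At this hour 2 of 19 core clock genes were called, 1 in each direction, beside 5.09% of all genes tested. A count this small is not read as a result about the list. Npas2, an activator that pairs with the product of Arntl, rose from 22.7, 15.2, 27.2 and 16.2 in sham to 28.5, 42.3, 43.3 and 30.5 in VSG (log2 fold change 0.82 ± 0.23, adjusted p = 0.0409; 12 fits), and Ciart, a repressor of the activators, fell from 125, 144, 88.2 and 146 in sham to 69.8, 99.6, 56.9 and 63.9 in VSG (log2 fold change -0.79 ± 0.22, adjusted p = 0.0365; 15 fits). The other 17 were not called. Arntl had 190.3, 208, 265 and 173 in sham and 287, 114, 266 and 254 in VSG (log2 fold change 0.072). Nr1d1, the repressor REV-ERB alpha, had 6474, 7118, 7244 and 9349.6 in sham and 6675, 9846, 7773 and 5979 in VSG (log2 fold change -0.0078). Per2 had 537, 654, 592 and 671 in sham and 547, 507, 507 and 690.0 in VSG (log2 fold change -0.13). The groups overlap in these 3. Clock, Cry1, Cry2, Nr1d2, Per3, Rora and Rorb had log2 fold changes of -0.26, -0.18, -0.019, 0.11, 0.014, -0.25 and -0.34, and the kinase genes Csnk1d and Csnk1e of -0.0011 and -0.054. Bhlhe40, a repressor, had 2356, 1566, 2055 and 2094 in sham and 1051, 1364, 608 and 899.6 in VSG (log2 fold change -1.08 ± 0.35, adjusted p = 0.0652). Per1 had 2929, 3209.9, 2611 and 3035 in sham and 1725, 2710.3, 1899.9 and 1649.7 in VSG (log2 fold change -0.59, adjusted p = 0.232) and Bhlhe41 -0.062. Among 12 clock outputs Tsc22d3, the glucocorticoid-induced gene GILZ, fell from 4349, 5033, 5075 and 4452 in sham to 4255, 2962, 2441 and 3021 in VSG (log2 fold change -0.60 ± 0.16, adjusted p = 0.0317), also the called member of 16 glucocorticoid-induced genes. The PAR-domain activators Dbp, Tef and Hlf had 0.49, -0.03 and -0.13, Nfil3 -0.46, Usp2 -0.64, Tspan4 0.62, Leo1 -0.37, Wee1 -0.32, Nampt 0.12, Pdzrn3 0.044 and Lonrf3 -0.27, none called. The list medians were -0.054 and -0.20.

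The clock activators bind E-boxes, and the promoter of Ciart is shown because, of the 3 called core clock and clock output genes, its window holds matches to CACGTG. The 250 bases before its RefSeq start, chr3:95882229-95882478 (GRCm38.p6, minus strand), are read along the gene with each CACGTG, which reads the same on both strands, in capitals.
Ciart: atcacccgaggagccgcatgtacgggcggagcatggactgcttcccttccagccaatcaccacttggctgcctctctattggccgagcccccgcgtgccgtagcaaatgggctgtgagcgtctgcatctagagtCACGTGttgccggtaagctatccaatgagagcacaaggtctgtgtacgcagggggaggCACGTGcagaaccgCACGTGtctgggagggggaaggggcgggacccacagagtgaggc
It holds 3, at 116, 58 and 44 bases before the start, while 6.02% of the 32851 promoters hold at least 1. The window of Npas2 and that of the first of 3 listed starts of Tsc22d3 have no CACGTG, which says only that these letters are not there.

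Smaller calls were spread over other lists. Their counts of 1 or 2 stand beside 5.09% of all genes tested and are not read as results about the lists. Plvap, a protein of the openings in capillary walls, and Pecam1, an adhesion molecule of endothelial cells, rose (log2 fold changes 0.87 and 0.39), 2 of 19 endothelial genes. Plvap had 5156, 5861, 4327 and 4721 in sham and 5222, 8529, 12469 and 12536 in VSG, with VSG replicate 1 inside the sham range. Xbp1, a transcription factor of the unfolded protein response, rose (0.43) and Hspa5, the chaperone BiP, fell (-0.39), 2 of 20 in that list. Ndrg1, a hypoxia-induced gene, had 3792, 4173, 4150.2 and 5009 in sham and 6151, 6379.7, 7249.9 and 6798 in VSG and rose (log2 fold change 0.64 ± 0.15, adjusted p = 0.0181), 1 of 14, and the glutathione transferase gene Gstt2 rose (0.81), 1 of 15. Other genes with large rises stood in no list. Kiss1r, the kisspeptin receptor, had 43.4, 64.8, 54.3 and 78.6 in sham and 84.03, 135, 444 and 497 in VSG (3.76-fold higher). Net1, a guanine nucleotide exchange factor, had 1221, 1724, 2157 and 2379 in sham and 3339, 5942, 7108 and 7995 in VSG (3.195-fold higher). St6galnac5, a sialyltransferase, had 243, 211, 297 and 396 in sham and 507, 1119, 1083 and 1293 in VSG (3.38-fold higher). The groups are apart in all 3. Grrp1 rose 3.24-fold with VSG replicate 1 inside the sham range, Rasgef1a 3.44-fold, Nupr1l 3.42-fold and Plppr3 3.07-fold (log2 fold change 1.62 ± 0.30, adjusted p = 0.00800). No member of the heat shock, immediate early, caveola or MHC class II lists was called.

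Markers of other cell types that a fat depot can hold were examined beside these results. Ighm, the heavy chain of IgM, fell from 50868, 44953, 42316 and 33148 in sham to 23684, 5513, 4177 and 3942 in VSG (6.21-fold lower; log2 fold change -2.64 ± 0.69, adjusted p = 0.0303; 14 fits), while the other 14 genes of the B cell list summed to 766 to 1096 in sham and 1029 to 2385 in VSG, highest in VSG replicate 2, and none was called; Ighm reads may be split with other immunoglobulin genes. With Ighm the 15 summed to 33970.2 to 51796 in sham and 5135 to 24713 in VSG. None of 14 T and NK cell markers was called (sums 893 to 1412 in sham and 1425 to 1824 in VSG), and none of 16 skeletal muscle markers tested (sums over 17 of 2224 to 2539 and 2093 to 2849.9), of which Myh4, Myh7, Ckm and Tnnc2 were under 10 in all 8 libraries. Of 9 smooth muscle and pericyte markers Rgs5 fell (log2 fold change -0.78), and the sums were 43147 to 48122 and 23885 to 38120.1. Pkp1 is itself a marker on the epithelial list, of which 12 are in the table: 8 were under 10 in all 8 libraries, Krt15 was at 0, and 3 were tested, Pkp1, Trp63 (log2 fold change -1.31, adjusted p = 0.0505) and Cdh1 (0.79, not called). The 12 summed to 201 to 398 in sham and 45.7 to 143 in VSG libraries. The mesothelial marker Lrrn4 rose from 1.97, 10.2, 12.2 and 19.4 in sham to 15.9, 60.7, 56.9 and 60.99 in VSG (log2 fold change 2.18 ± 0.64, adjusted p = 0.0471), with VSG replicate 1 inside the sham range. Of the 6 genes of the mesothelial list 3 are in the table and 2 were tested. The other tested gene, Krt19, was not called (log2 fold change 0.22). The 3 summed to 32.6 to 64.8 in sham and 61.8 to 104 in VSG libraries, so the sums overlap. Red cell genes summed to 4112 to 8385 in sham and 4201 to 13961 in VSG, and none of 5 was called. The part of any of these cell types in the results was not tested.

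The surgery effect at ZT7 was then set beside the mean effect at ZT1, ZT13 and ZT19, from 24 libraries that share no animal with the 8 but share their estimate of the spread. There 4674 genes were called, 30% of those tested, 13.3% higher and 16.7% lower, with a median SE of 0.11 against 0.18 at ZT7. Of the 794 genes called at ZT7, 672 were called there in the same direction, 84.6% of the ZT7 calls and 14.4% of the calls at the other times, and none in the opposite direction. The sign was the same for 789 of the 794 (99.4%), against 80.03% of all genes. The median size of the 794 was 0.84 at ZT7 and 0.51 at the other times (log2), a comparison in which the choice of genes by their ZT7 values itself raises the first number. In the other direction, the 4674 had medians of 0.36 at ZT7 and 0.40 at the other times. Of the 24 libraries 5 are high in B cell markers, 4 of them VSG, and 7 in muscle markers, 5 of them VSG, and without these the count of 4674 was 3188 and 2581; their part in single genes was not tested.

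**Figure D5:**
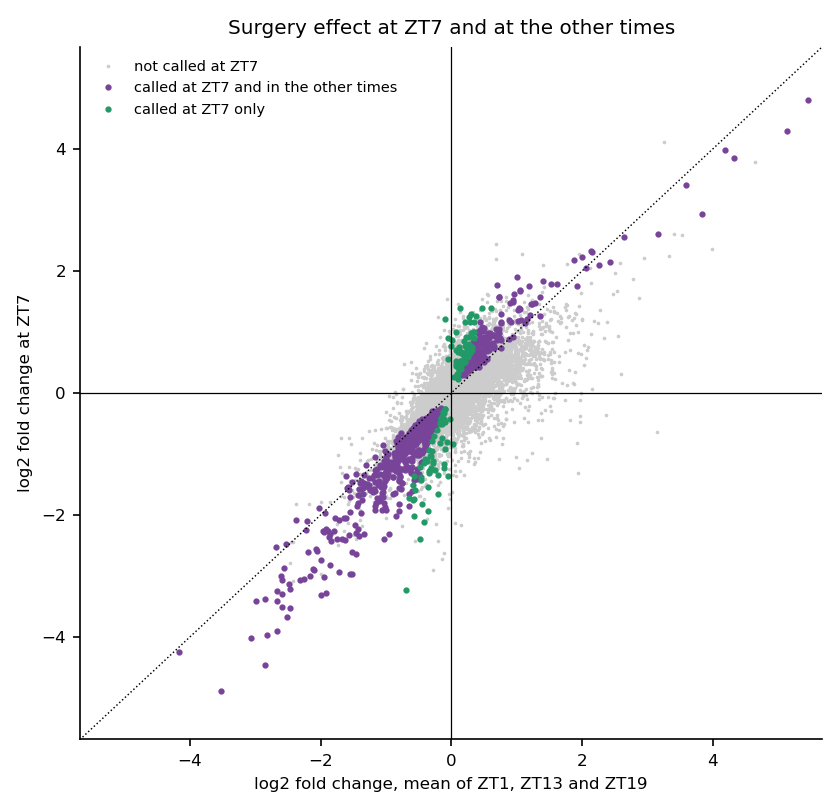
Log2 fold change of VSG against sham at ZT7 (vertical axis) and in the mean of ZT1, ZT13 and ZT19 (horizontal axis) for the 15588 genes tested, each a point; the dotted line marks equal effects. The 672 genes called in both comparisons and the 122 called at ZT7 alone lie almost all where both fold changes have the same sign.

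No gene was called for a difference in its surgery effect between ZT7 and the other times by limma (0 genes, 0%), with 387 at an unadjusted p under 0.05; edgeR called 0 and DESeq2 3. The 3, named after their values were seen, are Smpx and Csrp3 of muscle and the immunoglobulin gene Igkv8-28, with at most 6.46 in any ZT7 library and adjusted p-values of 0.999 in limma. The 6 genes with the smallest p for the difference were drawn from those with a mean value of at least 50. Cecr2, a chromatin remodelling factor, had 221, 264, 269 and 269 in sham and 319, 401, 304 and 302 in VSG, with a log2 fold change of 0.37 at ZT7 and -0.22 at the other times. The same values were, for ZT7 and then the other times, -0.74 and -0.14 for Amigo3, -0.43 and -0.014 for Nol10, -0.84 and 0.023 for Tmem119, 0.40 and -0.13 for Lpar6 and 0.37 and -0.17 for Fam212b. Each had an adjusted p of 0.999 for the difference. Amigo3, a membrane protein with leucine-rich repeats, had 208, 179, 153 and 157 in sham and 108, 96.1, 100.1 and 111 in VSG, and its call at ZT7 stood in all 21 fits. Genes that were called at the other times and not at ZT7, or the reverse, are therefore not shown to differ between them. Of 20 macrophage genes 19 were called higher at the other times (median 0.99) and none at ZT7 (0.42), and the collagen median was -0.53 there against -1.10 at ZT7. An unadjusted p under 0.05 for the difference was found for 6 of 20 cell cycle genes, 3 of 21 collagens and 3 of 20 genes of the insulin and FoxO list, and for at most 2 members of every other list, against 2.48% of all genes; none of these was called.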

How the data were processed

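RNA of subcutaneous white fat was sequenced from 32 mice, 4 for each of 8 groups of surgery and zeitgeber time, with TruSeq v2 libraries per the labels. The submitters' processing notes name the mm10 build, featureCounts (1.5.0-p1), STAR (2.5.2a), bcl2fastq (2.17.1.14) and DESeq2 (1.24.0) under R 3.6.3, without settings. The deposited table holds a signal, reads per gene over the library's size factor; multiplying by that factor gave whole reads for all values (tolerance 0.001), 15723832 to 27197490 per ZT7 library.

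The 15588 of 18124 genes whose mean over the 32 libraries was at least 10 were tested with limma 3.58.1 in R 4.3.3 on log2(value + 1), with a mean-variance trend, 8 group means and Benjamini-Hochberg adjustment. Each limma p-value of this fit sets a difference of group means against the spread between animals within groups. That spread is estimated per gene from all 8 groups, and not from the ZT7 animals alone. The 21 alternatives changed the pseudocount, filter, scaling, weights, covariates or libraries, or ran edgeR 4.0.16 or DESeq2 1.42.0 on whole reads. The fitting was tested on simulated data.

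The members and lists were chosen with earlier results of these data known. Named genes are the 15 highest and 15 lowest fold changes among called genes with a mean of at least 50 (without predicted and clone names and immunoglobulin and T cell receptor segments), up to 3 called genes per list and direction, all clock genes, the 6 smallest p-values for the difference from the other times and the 10 called genes with the highest mean; other list members were picked after their values were seen. Some genes that the rule picks out are not reported here. Promoters are from RefSeq (GRCm38.p6), and the other times enter only for comparison.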

Additional observations from a re-analysis of the deposited data

Results flagged for a closer look

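Of 476 sets of 4 libraries examined at ZT7, over the genes named above and the mean log2 values of the gene lists in each group, 35 held 1 library far from the other 3. For a set chosen beforehand, chance gives this about 1 time in 20. Some of these genes, such as Cfd and Cox8b, were picked after their values were seen, and the sets share libraries. The 35 can therefore not be read against that rate. VSG replicate 1 stood apart from the other VSG libraries in Hsd17b7 (279), Lrrn4 (15.9), Mvd (398), Nid1 (17311), Pkp1 (41.2), Slc5a7 (834) and Smtnl2 (338). VSG replicate 2 did so in Arntl (114), Cfd (438248), Cox8b (6471) and Hspa5 (9524). VSG replicate 3 did so in Ckm (3.71). VSG replicate 4 did so in Saa3 (337). Among sham libraries, replicate 1 stood apart in Cecr2 (221), Cidea (491), Ckm (0.986), Col6a1 (30126) and Txnip (19794). Sham replicate 2 did so in Lama2 (1362) and Ly6g (5.08). Sham replicate 3 did so in Rora (1143). Sham replicate 4 was the lowest of its group in Col12a1 (369), Me1 (8676), Mogat2 (442), Ncan (661) and Nsdhl (1502). The numbers are normalized values of that library. Of the lists, the mean log2 value in VSG replicate 2 was 12.3 for fatty acid oxidation, 11.8 for branched-chain amino acid breakdown, 12.9 for nuclear-encoded oxidative phosphorylation and 3.76 for skeletal muscle. Of the lists, the mean log2 value in sham replicate 2 was 13.8 for lipolysis and lipid droplet and 3.91 for mesothelium. Of the lists, the mean log2 value in sham replicate 4 was 10.7 for glucocorticoid-induced, 10.1 for heat shock and cold-inducible and 10.9 for glutathione S-transferases and antioxidant. The high value of Ucp1 is in the same library as those of Cox8b and of the oxidative phosphorylation list, VSG replicate 2, and its part in the results was not tested beyond the fits without it.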

How the results depend on the processing

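The count of 794 genes called at ZT7 stayed within 1.5 times under either other pseudocount (776 and 810), without a filter (758) or with a mean of at least 50 (705), after TMM (776) or quantile scaling (644), from the ZT7 libraries alone (1027), without libraries high in muscle markers (583) and with edgeR (732). It rose to 4097 with limma array weights, 1549 with B cell and muscle marker means as covariates, 1269 without libraries high in B cell markers and 1297 with DESeq2, and ranged from 82 to 1668 with 1 library left out. The count changed at least 2-fold (323) became 896 with array weights and 487 with the covariates, and 61 to 585 with 1 library left out. At the other times 4674 became 7688, 2849 and, without libraries high in muscle markers, 2581. The difference between times had 0 calls in all fits but DESeq2, with 3; the ZT7 libraries alone give no such fit. The weight loss difference kept its sign, with 10.5 for medians and 10.3 to 13.5 with 1 animal left out, each with an exact permutation p of 0.0571. No direction of a named called gene reversed; of the 90, 90 were called without VSG replicate 1 and leaving out VSG replicate 2, 3 or 4 kept 59, 27 or 14, and sham replicate 1, 2, 3 or 4 kept 19, 35, 47 or 73. Causes were not tested. No paired analysis was possible because replicate numbers here follow the order of the samples, and no label ties a VSG animal to a sham animal. Genes with values near 0 rest on a few reads per library.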

Other observations

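Some genes split the 4 VSG animals rather than the surgeries; they were picked after their values were seen and were not called. Gnas, which encodes the stimulatory G protein subunit through which adrenergic receptors act, had 120.3, 138, 111 and 137 in sham and 95.1, 125, 1359 and 1345 in VSG, so VSG replicates 3 and 4 stand far above the other 6 libraries. Fasn, the fatty acid synthase, and Scd1, a desaturase, were lowest in VSG replicates 3 and 4: Scd1 had 455563, 287258, 408130.0 and 447019 in sham and 482627, 267946, 195698 and 166645 in VSG. Cfd, the adipocyte protease adipsin, had 83315, 65799, 52653 and 118953 in sham and 78343, 438248, 95734 and 96285 in VSG, and Adrb3, the beta 3 adrenergic receptor, 3292, 2894, 2893 and 3820.2 in sham and 3944, 18598, 4826 and 6315 in VSG, with VSG replicate 2 the highest of all 8 in both. Saa3, an acute-phase gene of fat, had 1969, 304, 588 and 322 in sham and 72.9, 75.5, 71.7 and 337 in VSG, with the groups overlapping.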
